A study of Mus musculus with 5 samples.

Results

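Tubulins and the proteins that bind, trim or cut microtubules were followed by mRNA sequencing of mouse spinal cord through a named set of 40 genes, taken by symbol from 55471 gene identifiers in the deposited count table. All 40 had an identifier in the table, and all 40 were among the 16052 genes that held enough counts to be tested. The KO group was 2 libraries from mice homozygous for a knockout of the long non-coding RNA gene Lhx1os (Lhx1os -/-), and the WT group was 3 libraries from wild-type mice. Every animal was a resting male of the C57BL/6J strain aged 3 months, and none of the labels names another allele or a treatment. The knockout was engineered in fertilized eggs with Cas9 and 1 guide in exon 2 of Lhx1os, and a donor oligonucleotide carried a synthetic poly(A) site and MAZ elements, which stall the polymerase, to stop transcription there. How many founders the line came from, and whether animals were pooled, is not given in the sources used here. The series title ties loss of Lhx1os to motor neuron and locomotor defects, and the comparison of KO with WT asks how the transcriptome of the cord differs.

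Microtubules are hollow polymers of alpha and beta tubulin dimers, nucleated by gamma tubulin, and they carry transport along axons and give myelinating cells their processes. Each tubulin family has several isotype genes, whose products differ mostly in a short, acidic C-terminal tail that enzymes modify and motors read. Microtubule-associated proteins (MAPs) such as tau and MAP2 bind along the lattice and stabilise it, end-binding proteins ride on growing tips, stathmins hold dimers back from polymerising, and spastin and katanin cut the lattice. In adult spinal cord the neurons, with their long axons, and the oligodendrocytes are both rich in tubulin, through partly different isotypes.

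The libraries held 15973063 to 19437533 counts, and the TMM scaling factors lay between 0.982 and 1.01. Lhx1os itself had 13 and 11 counts in the KO libraries and 56, 66 and 51 in the WT libraries (edgeR's adjusted p = 0.0589). Markers of the cord's own cell types were present throughout. The 10 neuron markers summed to 6099.9 and 6138.3 CPM (counts scaled to a common library size) in KO and to 6070.0, 5940.7 and 5685.2 CPM in WT, and the 8 oligodendrocyte markers to 32120.9 and 31834.1 CPM in KO and to 36054.7, 30622.8 and 33776.0 CPM in WT. No marker of neurons, oligodendrocytes and their precursors, astrocytes, microglia or ependymal cells was at 0 in any library. The 7 meningeal fibroblast markers ran from 205 to 472.6 CPM over all libraries. In whole tissue of this kind, fewer cells of a type and less RNA per cell cannot be told apart.

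Some of the tubulin genes are near copies of each other over much of their coding sequence, which bears on how well their counts can be told apart. The coding sequences of Tuba1a and Tuba1b were 98.3% identical, those of Tuba1c and Tuba1b 97.9%, and those of Tuba4a and Tuba1b 85.0%. For 5 beta isotypes the last 60 coding bases, stop codon included, are shown because they hold the C-terminal tail. They are given 5′ to 3′ from the GENCODE M21 transcripts on GRCm38. Capitals mark bases unlike the same place in Tubb5, or without a counterpart there, in an alignment of the whole coding sequences.
Tubb2a: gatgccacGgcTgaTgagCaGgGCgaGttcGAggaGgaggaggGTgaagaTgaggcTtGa
Tubb2b: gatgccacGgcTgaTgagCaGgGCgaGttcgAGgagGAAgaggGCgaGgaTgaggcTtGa
Tubb3: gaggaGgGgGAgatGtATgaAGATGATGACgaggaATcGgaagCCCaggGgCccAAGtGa
Tubb4a: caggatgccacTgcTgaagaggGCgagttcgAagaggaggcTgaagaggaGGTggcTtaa
Tubb5: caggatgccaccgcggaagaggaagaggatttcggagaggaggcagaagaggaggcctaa
Tubb3, the neuronal isotype, had the most divergent end of these 5, with 29 of 60 bases unlike Tubb5 or without a counterpart there. Tubb4a, the isotype of oligodendrocytes, had 10 such bases. The ends of Tubb4b and Tubb6, which are not shown, had 20 and 25. Tubb2a and Tubb2b were 96.5% identical to each other.

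These likenesses set how far each count can be trusted. Of the windows of 100 bases in the annotated transcripts of Tuba1a, 65.1% occurred letter for letter in transcripts of another gene, and the share was 62.1% for Tuba1b and 46.0% for Tuba1c. It was 36.9% for Tubb2a, 26.0% for Tubb2b and 20.98% for Tubb4b, which shares them with its pseudogenes. No such window of Tubb3, Tubb4a, Tubb5, Tubb6, Tuba4a or Tuba8 lay in another gene. For Stmn1 the share was 12.8%, with Gm11223. Reads from the shared stretches could have been divided between copies or dropped. The levels of Tuba1a, Tuba1b, Tuba1c, Tubb2a, Tubb2b, Tubb4b and Stmn1 are therefore uncertain. Tuba1a and Tuba1b also overlap Gm49450 on the same strand, over 26.2% and 22.7% of their exon length, and Gm49450 held 3 counts in all. Tuba4a overlaps Stk16 on the opposite strand over 37.3% of its exon length, and Stk16 held 3782 counts in all, against 37010 for Tuba4a; whether the counting used strand is not stated.

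Per kilobase of exon, tubulin genes were among the most abundant members. Levels here are CPM per kilobase of merged exon length. Tubb4a, whose product is the chief beta tubulin of myelinating oligodendrocytes, came first at 811.4 in KO and 749.6 in WT. Tuba1a, the main alpha tubulin of neurons and mutated in human lissencephaly, followed at 413.0 in KO and 391.8 in WT. Stmn3, a neuronal stathmin, stood at 350.3 in KO and 317.7 in WT, and Tubb3 at 313.1 in KO and 268.7 in WT. The library ranges of Stmn3 and Tubb3 overlapped, so their order is not resolved, whereas Tubb4a, Tuba1a and Stmn3 did not overlap in that order. Tuba1b, a broadly expressed alpha tubulin, came next at 225.9 in KO and 208.3 in WT.

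Among the MAPs, Map1a came first per kilobase, with 183.3 CPM in KO and 164.9 CPM in WT. Tppp3, a small tubulin polymerisation protein, and Map1b overlapped behind it, with 128.6 and 131.4 CPM per kilobase in KO and 125.8 and 119.6 in WT. Map1a and Map1b encode large lattice proteins of axons and dendrites. At the low end stood Tuba1c with 0.595 in KO and 0.738 in WT, Dcx, a MAP of migrating young neurons, with 1.49 in KO and 1.39 in WT, and Tubb6 with 1.65 in KO and 1.31 in WT. Of the 39 steps between neighbours in the order of all 40, the libraries stood apart at 15 and overlapped at 24. With the longest annotated transcript as the length, 8 of the 10 highest members were again among the 10 highest. Map2 then moved up by the most places, to 174.3 CPM per kilobase, against 66.3 by merged exons.

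**Figure D1:**
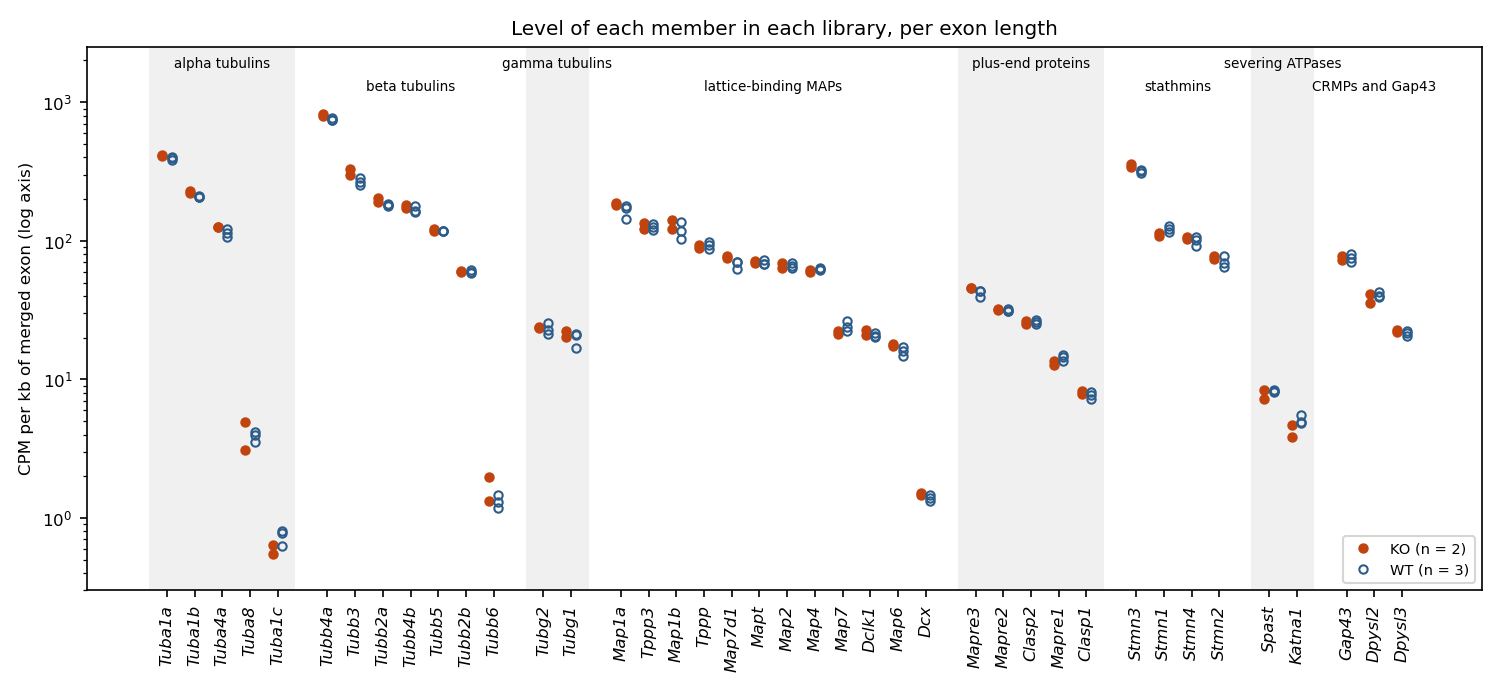
Level of each of the 40 genes in each library, as CPM per kilobase of merged exon on a log axis, grouped by role; filled points are the KO libraries and open points the WT libraries. Levels span from 0.681 CPM per kilobase on average for Tuba1c to 774.3 for Tubb4a, and the KO and WT points of a gene lie close together.

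The make-up of tubulin mRNA by isotype was close in the genotypes. Tubb4a made up 48.3% ± 1.17 of beta tubulin mRNA per kilobase in KO (SD, n = 2) and 48.5% ± 0.293 in WT (SD, n = 3). Tubb3 made up 18.6% ± 1.29 in KO and 17.4% ± 0.701 in WT. The Tubb3 shares were 19.54% and 17.71% in the KO libraries and 18.04%, 17.45% and 16.64% in the WT libraries, so KO replicate 2 lay within the WT range. Tubb5, a housekeeping beta tubulin, held 7.18% and 7.02% in KO and 7.39%, 7.66% and 7.79% in WT, and Tubb2b 3.58% and 3.58% in KO and 3.68%, 3.86% and 4.06% in WT. For Tubb5 and Tubb2b the KO libraries lay below every WT library, in mean by under 1 percentage point. The CPM of both overlapped between the genotypes, with log2 fold changes of 0.021 and 0.011. Shares within a family add up to a fixed whole, so they are not independent of each other. By chance alone, 2 libraries lie wholly above or below 3 others in 20% of cases. In CPM, 24.9% of all tested genes did not overlap.

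Tuba1a made up 53.7% ± 0.0654 of alpha tubulin mRNA per kilobase in KO and 54.6% ± 0.294 in WT. Its shares were 53.66% and 53.76% in KO and 54.27%, 54.56% and 54.86% in WT. They were lower in KO without overlap, though its level per kilobase was 413.0 in KO and 391.8 in WT. The shares of the scarce Tuba1c were also lower without overlap, at 0.0826% and 0.0721% in KO and 0.0860%, 0.112% and 0.111% in WT. Tuba1b made up 29.4% ± 0.140 in KO and 29.0% ± 0.557 in WT. The summed level of the 7 beta tubulins was 1688.1 and 1672.9 CPM per kilobase in the KO libraries and 1582.8, 1532.9 and 1519.4 in the WT libraries. For the 5 alpha tubulins it was 779.4 and 758.6 in KO and 725.8, 701.0 and 727.4 in WT. Both sums were thus higher in each KO library than in any WT library, by 8.77% for beta and 7.09% for alpha tubulins on average. Among all tested genes, 12.9% were higher in KO without overlap. Of the neuron markers 7 of 10 lay the same way, with KO and WT means of the sum of 6119.1 and 5898.6 CPM, and their part in the tubulin sums was not tested.

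**Figure D2:**
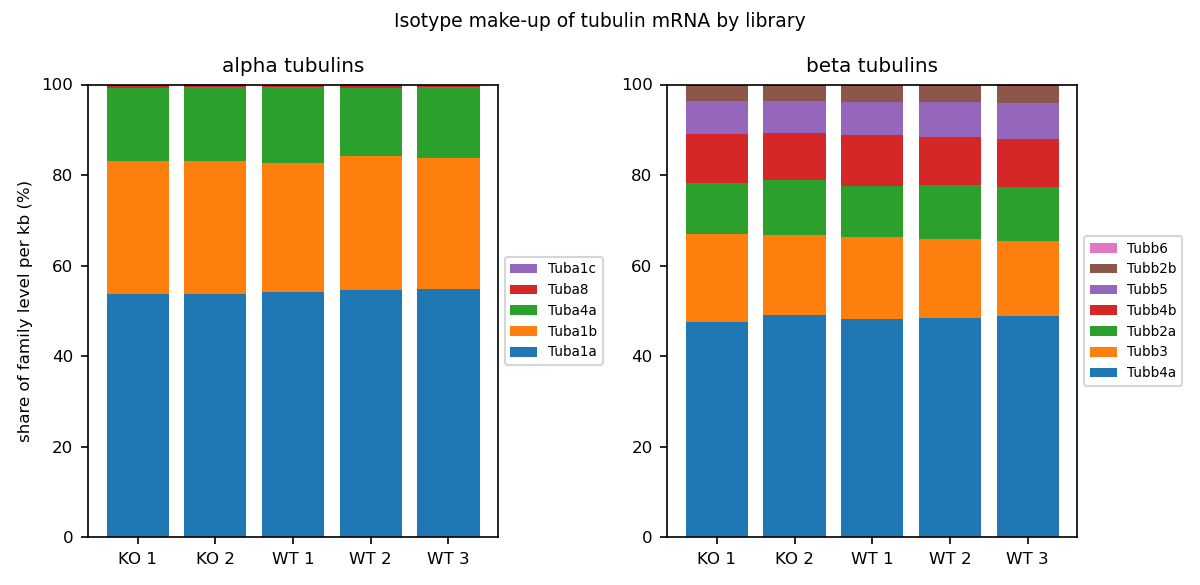
Share of each isotype in the summed level of its tubulin family per kilobase, as stacked bars for the 2 KO and 3 WT libraries. Tuba1a and Tuba1b make up most of the alpha family and Tubb4a nearly the same share of the beta family in every library, 48.3% on average in KO and 48.5% in WT.

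Between the genotypes, 0 of the 40 genes passed at an adjusted p of 0.05 in edgeR's quasi-likelihood test, where 0.0187% of all tested genes did. DESeq2 also called 0, where it called 0.249% of all tested genes. At an unadjusted p under 0.05 there were 5 members, all higher in KO, where 3.49% of all tested genes were higher in KO at that level. The share over both directions was 7.57%, and 0 members were lower in KO, where 4.07% of all genes were. The count of 5 depended on single libraries, becoming 0 without KO replicate 1, 2 without KO replicate 2, 8 without WT replicate 1 and 2 without WT replicate 3. Of the 40, 29 lay above 0 on the log2 scale, against 51.3% of all tested genes. The median log2 fold change was 0.063 over the members and 0.0044 over all genes. The libraries of the genotypes did not overlap for 16 members, 11 higher and 5 lower in KO, where 24.9% of all tested genes did not overlap, 12.9% higher and 12% lower (1920 of 16052). Those higher in KO were Tubb3, Tubb2a, Tubb4a, Tuba1a, Tuba1b, Tuba4a, Map7d1, Map6, Map1a, Mapre3 and Stmn3, and those lower were Map7, Map4, Mapre1, Stmn1 and Katna1.

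Differences of the size seen were small, and the data bound them closely. The standard error of the log2 fold change was 0.054 to 0.11 for the 32 members with a mean of at least 100 CPM. The 95% confidence interval lay within a 1.5-fold change in either direction for all 32, and within a 1.2-fold change for 21 of them. Over all 40 genes, 38 intervals lay within a 1.5-fold change. The exceptions were Tubb6 (−0.19 to 0.86) and Tuba1c (−0.97 to 0.35), both with few counts.

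**Figure D3:**
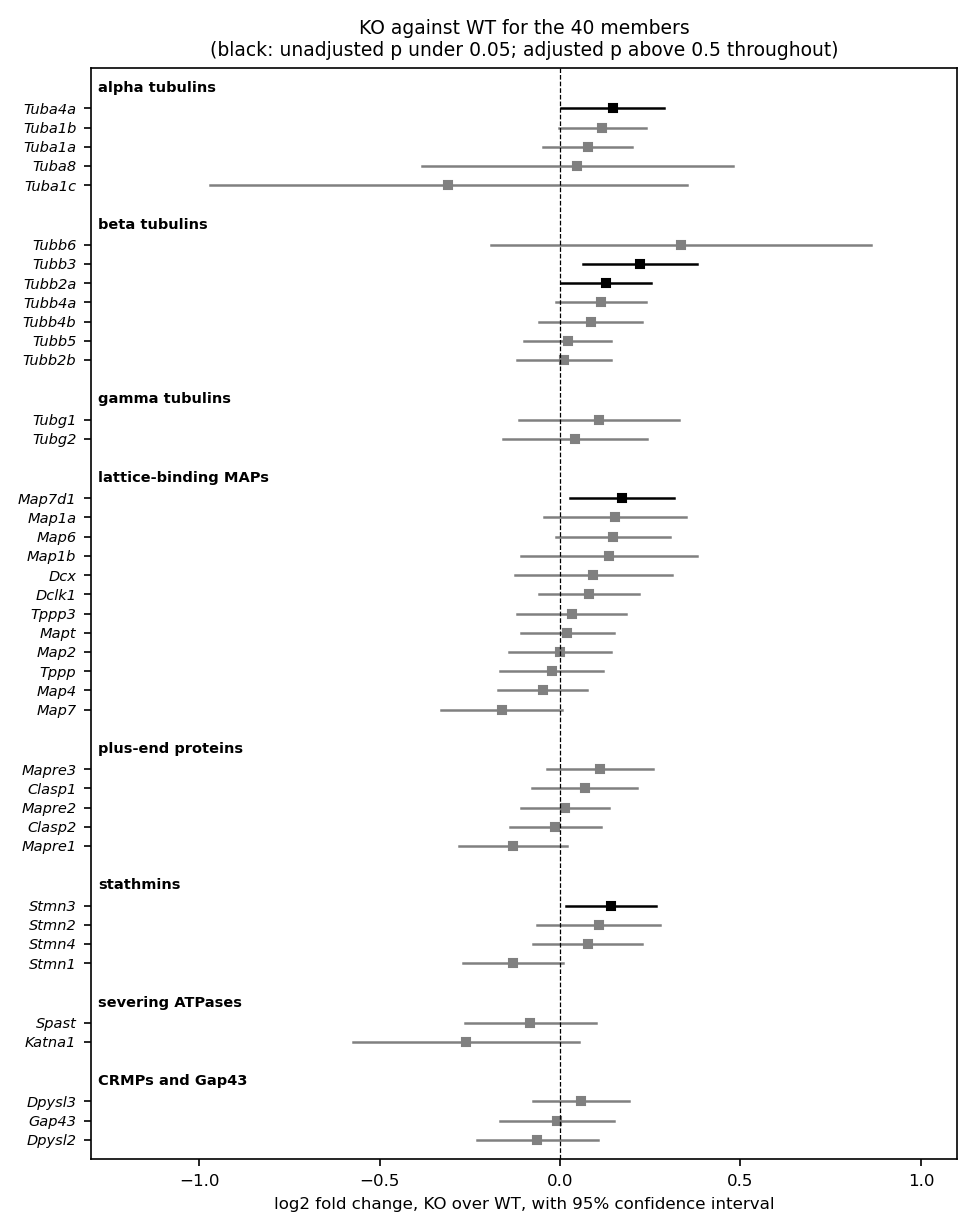
Log2 fold change of each of the 40 genes, KO over WT, with its 95% confidence interval from edgeR, grouped by role; black marks the 5 genes at an unadjusted p under 0.05. Most points lie between −0.2 and 0.2, and edgeR's adjusted p in the main fit was 0.539 or higher for every gene.

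Of the tubulins, all 7 beta genes lay above 0 on the log2 scale (median 0.11), as did 4 of the 5 alpha genes (median 0.076). Without KO replicate 1 the beta median was 0.045, and without KO replicate 2 the alpha median was 0.14. Tubb3 (chr8:123411424-123422015, plus strand, GRCm38), the beta tubulin that marks neurons, had 616.3 and 553.6 CPM in the KO libraries and 533.4, 499.8 and 472.4 CPM in the WT libraries. Both KO libraries lay above all WT libraries, and they differed from each other by more than the groups differed at their nearest points. KO exceeded WT by 0.22 on the log2 scale (SE 0.071), which edgeR gave an adjusted p of 0.539 and DESeq2 one of 0.446. Leaving out KO replicate 1 gave 0.14, and leaving out KO replicate 2 gave 0.30.

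Tubb2a (chr13:34074274-34078007, minus strand), another neuronal beta tubulin, had 308.0 and 327.5 CPM in KO and 288.0, 294.5 and 290.3 CPM in WT. The WT libraries were close together and both KO libraries were higher. Its log2 fold change was 0.13 (SE 0.056, edgeR's adjusted p = 0.657), and without KO replicate 2 it was 0.081. Tubb4a (chr17:57080066-57087782, minus strand) had 1785.0 and 1830.5 CPM in KO and 1700.8, 1657.2 and 1652.5 CPM in WT, again without overlap, a difference of 0.11 on the log2 scale (SE 0.056, edgeR's adjusted p = 0.692). The neuronal and the oligodendrocyte isotype thus lay on the same side, while the summed oligodendrocyte markers overlapped between the genotypes. Tubb4b, a beta tubulin of many tissues and of cilia, stood at 0.085, Tubb5 at 0.021 and Tubb2b, known from developing cortex, at 0.011, with standard errors of 0.054 to 0.064. Tubb6, a minor isotype, had 4.78 and 3.25 CPM in KO and 3.15, 2.86 and 3.57 CPM in WT.

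Tuba4a (chr1:75214228-75219865, minus strand), an alpha tubulin encoded without the usual C-terminal tyrosine and mutated in rare amyotrophic lateral sclerosis, had 465.6 and 462.9 CPM in KO and 446.5, 394.4 and 417.9 CPM in WT. The KO libraries were nearly equal and stood above the WT libraries. Its log2 fold change was 0.15 (SE 0.064, edgeR's adjusted p = 0.657), and 0.10 without WT replicate 2. Tuba1b (chr15:98931425-98934565, minus strand) had 430.7 and 416.4 CPM in KO and 387.1, 388.5 and 395.8 CPM in WT, a difference of 0.12 on the log2 scale (SE 0.054, edgeR's adjusted p = 0.666). Tuba1a (chr15:98949837-98953703, minus strand) had 754.1 and 735.2 CPM in KO and 710.2, 689.5 and 719.5 CPM in WT, a log2 fold change of 0.076 (SE 0.055). In both, the genotypes did not overlap. Tuba8 and Tuba1c, which were scarce, had log2 fold changes of 0.048 (SE 0.19) and −0.31 (SE 0.30). The gamma tubulins of the nucleating complex, Tubg1 and Tubg2, stood at 0.11 (SE 0.10) and 0.042 (SE 0.089), with overlapping libraries. Tubg1 stood at 0.011 without WT replicate 3 and at 0.038 without KO replicate 1.

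**Figure D4:**
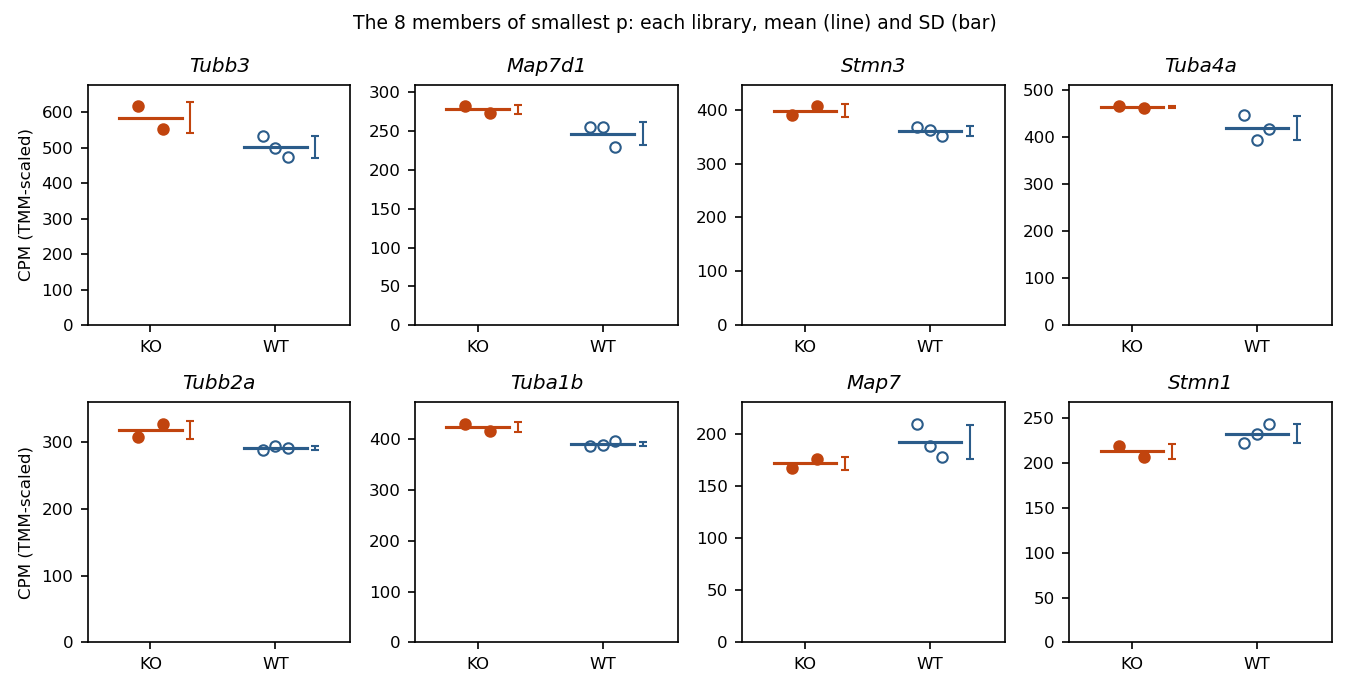
CPM in each library for the 8 members of smallest p, KO on the left and WT on the right of each panel, with the group mean as a line and the SD as a bar (n = 2 KO, n = 3 WT). Tubb3, Map7d1, Stmn3, Tuba4a, Tubb2a and Tuba1b lie higher in KO, and Map7 and Stmn1 lower. None of edgeR's adjusted p-values in the main fit was below 0.539.

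The lattice-binding MAPs lay on both sides of WT. Of 12, 9 lay above 0 and 3 below 0, around a median log2 fold change of 0.056, which was 0.015 without KO replicate 1, 0.11 without KO replicate 2 and 0.026 without WT replicate 3. Map7d1 (chr4:126232167-126256343, minus strand), a paralog of the kinesin-recruiting MAP7, had 281.8 and 273.8 CPM in KO and 255.1, 254.9 and 229.6 CPM in WT, a difference of 0.17 on the log2 scale (SE 0.064, edgeR's adjusted p = 0.621). Map7 (chr10:20148471-20281590, plus strand) lay the other way, with 167.8 and 176.2 CPM in KO and 210.3, 188.7 and 178.3 CPM in WT, a difference of −0.16 on the log2 scale (SE 0.075, edgeR's adjusted p = 0.666). The KO libraries of these paralogs stood on opposite sides of the WT libraries, and without WT replicate 1, the highest for Map7, its value was −0.094. Map6, the cold-stable MAP also called STOP, had 159.3 and 165.0 CPM in KO and 147.0, 157.1 and 135.2 CPM in WT (0.15, SE 0.071).

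Mapt, which encodes tau, had 524.5 and 537.1 CPM in KO and 516.2, 545.9 and 508.4 CPM in WT. The KO values lay inside the WT range, and the log2 fold change was 0.020 (SE 0.058), with a 95% interval from −0.11 to 0.15. Map2, the dendritic MAP, gave a like result, with KO and WT means of 1090.7 and 1090.5 CPM and an interval from −0.14 to 0.14. Tppp, a tubulin polymerisation protein of oligodendrocytes, stood at −0.023 (SE 0.064), its relative Tppp3 at 0.032 (SE 0.067), the broadly expressed Map4 at −0.048 (SE 0.055), Dcx at 0.093 (SE 0.097) and the doublecortin-like kinase Dclk1 at 0.080 (SE 0.062).

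Map1a and Map1b, the MAPs of highest CPM, had the widest spread between WT libraries among members of at least 100 CPM. Map1a had 2268.0 and 2192.3 CPM in KO and 2173.8, 2098.5 and 1746.9 CPM in WT, and Map1b 2246.3 and 1918.0 CPM in KO and 2180.1, 1858.9 and 1645.0 CPM in WT. WT replicate 3 was the lowest library for both. Without it, the log2 fold changes were 0.058 for Map1a, against 0.15 with all libraries, and 0.040 for Map1b, against 0.14. Without KO replicate 1 the Map1b value was 0.015. WT replicate 3 was the lowest library for 14 of the 40 members and KO replicate 1 the highest for 19, while across all tested genes those libraries were lowest and highest for 22.0% and 21.3%. WT replicate 3 also had the lowest neuron marker sum, and the part of neuron content in these values was not tested.

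At the plus ends, Mapre1, the gene of the end-binding protein EB1, had 106.7 and 99.0 CPM in KO and 117.3, 106.8 and 113.7 CPM in WT. Its neuronal relative Mapre3, the gene of EB3, had 157.3 and 157.6 CPM in KO and 151.0, 150.8 and 135.6 CPM in WT. The genotypes did not overlap for either, and the signs were opposite, at −0.13 (SE 0.067) for Mapre1 and 0.11 (SE 0.065) for Mapre3. Mapre1 stood at −0.078 without KO replicate 2, and Mapre3 at 0.057 without WT replicate 3. Mapre2 stood at 0.015 and the tip-stabilising Clasp1 and Clasp2 at 0.069 and −0.013, with standard errors of 0.055 to 0.065.

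Stathmins bind free tubulin dimers and favour shrinkage. Stmn3 (chr2:181306459-181314500, minus strand) had 389.5 and 406.4 CPM in KO and 368.7, 363.3 and 350.6 CPM in WT, a difference of 0.14 on the log2 scale (SE 0.056, edgeR's adjusted p = 0.641). Stmn1 (chr4:134468320-134473843, plus strand), the stathmin of dividing and immature cells, had 218.8 and 207.5 CPM in KO and 222.6, 232.6 and 244.2 CPM in WT, a difference of −0.13 on the log2 scale (SE 0.062, edgeR's adjusted p = 0.682). The members of this family thus lay on both sides of WT. Of the 6 oligodendrocyte precursor markers 1 had a positive log2 fold change, and their sum was also lower in KO, at 340.8 and 326.4 CPM against 395.5, 399.5 and 410.0 CPM in WT, and their part in the Stmn1 value was not tested. Stmn2, the stathmin of regrowing motor axons whose splicing depends on TDP-43 in humans, had 435.5 and 411.6 CPM in KO and 432.8, 361.2 and 386.3 CPM in WT (0.11, SE 0.077), with overlap, and Stmn4 stood at 0.077 (SE 0.068).

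The severing ATPases had a mean over all libraries of 49.8 CPM for Spast and 10.5 CPM for Katna1. Spast, the gene of spastin, which is mutated in hereditary spastic paraplegia, had 44.2 and 52.1 CPM in KO and 49.9, 50.9 and 52.0 CPM in WT. KO replicate 2 was thus the highest library and KO replicate 1 the lowest, and the log2 fold change was −0.082 (SE 0.082). Katna1, the catalytic subunit of katanin, had 8.46 and 10.3 CPM in KO and 10.9, 12.2 and 10.6 CPM in WT. Its KO libraries were both below the WT libraries (log2 fold change −0.26, SE 0.14, edgeR's adjusted p = 0.714), with a 95% interval from −0.57 to 0.052, and without KO replicate 1 it stood at −0.13. For the 3 genes of axon growth the libraries of the genotypes overlapped. Gap43, a growth cone membrane protein that is no tubulin binder, had 111.5 and 117.4 CPM in KO and 107.0, 123.2 and 115.1 CPM in WT, a difference of −0.0085 on the log2 scale (SE 0.071). Dpysl2 and Dpysl3, the tubulin-carrying collapsin response mediators CRMP2 and CRMP4, stood at −0.063 (SE 0.075) and 0.058 (SE 0.060).

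Neuronal isotypes were then set against glial or non-neuronal ones within each library. The neuronal set held Tuba1a, Tuba4a, Tubb2a and Tubb3, and the other set Tubb4a, Tubb6 and Tuba1c. The mean log2 CPM of the neuronal set was 8.99 and 8.96 in the KO libraries and 8.88, 8.81 and 8.82 in the WT libraries, with no overlap. The neuronal set minus the other set was 4.40 and 4.61 in KO and 4.52, 4.41 and 4.30 in WT, so KO replicate 1 lay within the WT range and KO replicate 2 above it. The mean difference between KO and WT was 0.099, below the within-group SD of 0.12, and without KO replicate 2 it was −0.0070. Tubb6 and Tuba1c, at under 5 CPM, weigh as much as Tubb4a in that mean, so Tubb3 minus Tubb4a was also taken alone. It was −1.53 and −1.73 in KO and −1.67, −1.73 and −1.81 in WT, a difference of 0.11 with an SD of 0.095. In log2 of the summed CPM the sets differed between KO and WT by 0.024 (SD 0.036).

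Stabilisers, taken as the 12 lattice-binding MAPs with Clasp1 and Clasp2, were likewise set against the 4 stathmins, Spast and Katna1. The stabilisers minus the destabilising set in mean log2 CPM was 1.66 and 1.55 in KO and 1.57, 1.56 and 1.47 in WT. The KO replicate 1 value was the highest, and KO replicate 2 lay within the WT range. The difference of 0.073 between KO and WT was near the within-group SD of 0.060, and it was 0.021 without KO replicate 1, 0.12 without KO replicate 2 and 0.042 without WT replicate 3. With the lattice-binding MAPs against the stathmins alone it was 0.0015, and in log2 of the summed CPM it was 0.012. Among the stabilisers 10 of 14 log2 fold changes were positive (median 0.050), and among the destabilising proteins 3 of 6 (median −0.0026).

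**Figure D5:**
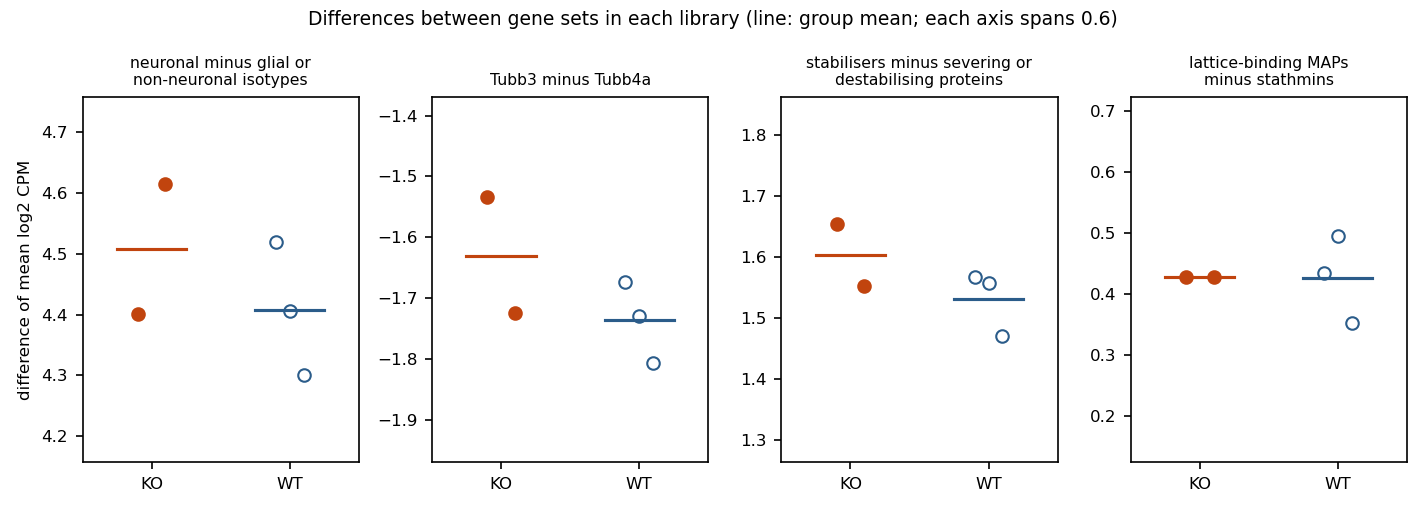
Difference in mean log2 CPM between gene sets in each library, with the group mean as a line; each vertical axis spans the same width. In each panel at least 1 KO library lies within the range of the WT libraries, and for the lattice-binding MAPs minus the stathmins both do.

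Other genes that build, modify or regulate microtubules gave a similar picture. Of 125 listed genes 117 could be tested, and 0 passed over all genes in edgeR or in DESeq2. At an unadjusted p under 0.05 there were 8 in edgeR, 6 higher and 2 lower in KO, where 7.57% of all tested genes were at that level. The median log2 fold change was 0.031, with 70 positive. That count was 3 without KO replicate 1, 5 without WT replicate 3 and 15 without WT replicate 2. The tubulin-modifying enzymes had 18 of 24 positive values (median 0.064) and the folding cofactors 3 of 8 (median −0.0063). The gamma-tubulin ring complex had 9 of 17 (median 0.027) and further severing and depolymerising proteins 5 of 10 (median −0.011). The end-binding proteins had 11 of 20 positive values (median 0.020), further lattice-binding proteins 12 of 20 (median 0.030), the kinases that act on MAPs and tubulin 11 of 16 (median 0.038) and the other tubulins 1 of 2.

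The smallest p-values of those genes belonged to Cdk5r2, Agbl5 and Ttll4. Cdk5r2, the p39 activator of the tau kinase CDK5, had 77.4 and 78.6 CPM in KO and 65.9, 72.4 and 61.8 CPM in WT (log2 fold change 0.22, SE 0.075, edgeR's adjusted p = 0.577). Agbl5, which removes glutamates from tubulin tails, had 13.6 and 15.2 CPM in KO and 10.6, 12.3 and 10.8 CPM in WT (log2 fold change 0.36, SE 0.12, edgeR's adjusted p = 0.586). Ttll4, a glutamylase that adds them, had 28.0 and 32.3 CPM in KO and 34.7, 36.9 and 35.6 CPM in WT (log2 fold change −0.24, SE 0.087, edgeR's adjusted p = 0.603). For both, the libraries of the genotypes did not overlap, and neither passed. Other listed Agbl and Ttll genes, named after their values were seen, lay on both sides of WT. The log2 fold changes of Agbl2, Agbl4 and Agbl3 were 0.25, 0.18 and −0.024. Ttll3, Ttll1 and Ttll5 stood at 0.28, 0.16 and 0.12, and Ttll8, Ttll7 and Ttll12 at 0.068, 0.038 and 0.0011. Ttll11, Ttll6 and Ttll9 stood at −0.14, −0.15 and −0.31. Agbl2, Ttll6, Ttll8 and Ttll9 were scarce.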

How the data were processed

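Polyadenylated RNA of spinal cord was sequenced in 2 KO and 3 WT libraries, grouped by the sample titles. The authors deposited raw counts of reads per gene in 1 table, with no normalization. Per the submitters' processing notes, the tools were STAR 2.5.2b, HTSeq, cutadapt and Trimmomatic, and the build was GRCm38. For the annotation release, read length, strand setting and reads with several alignments, the sources used here state nothing, and per the labels' protocols the library kit keeps strand. Symbols, coordinates and exon lengths came from GENCODE M21 on GRCm38.

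Genes of low count were left out by filterByExpr (count of at least 10, total of at least 15), scaled by TMM and compared by the quasi-likelihood F test (edgeR 4.0.16, R 4.3.3), adjusted by the Benjamini-Hochberg method over all 16052 genes. The fit was tested on simulated data whose changes were larger than those of any member, so recovery of changes as small as these was not tested. CPM is TMM-scaled, log2 CPM has a prior count of 2, and 95% intervals use the fit's moderated degrees of freedom. Identities of coding sequences count gaps as unlike. The labels do not say that libraries came from separate litters or days. The p-values set the difference between the groups against the spread between these libraries, moderated over all genes tested. Libraries of a group differed beyond sampling noise (chi-square per degree of freedom 4.01 to 7.47). For pairs of a KO and a WT library the range was similar, at 4.23 to 7.72. The members and lists were chosen with earlier results of these data known. All 40 members are named. Those of the 8 smallest p-values, the 5 most abundant per length and 7 picked for their role have every library's value. So do several others that were chosen after their values were seen. Of the other microtubule genes, the 3 of smallest p and the further listed Agbl and Ttll genes are named. Alternatives were DESeq2 1.42.0, limma-voom (limma 3.58.1), other size factors and filters, robust dispersion, a replicate block and leaving out each library. No set of members was given a p. Coding bases of the alpha tubulins are not reported here.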

Additional observations from a re-analysis of the deposited data

How the results depend on the processing

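In 13 alternative fits 0 members passed, and 0 of the other microtubule genes did; the lowest adjusted p of a member was 0.232, for Tubb3 without WT replicate 1. Over 520 pairs of a member and an alternative, 491 kept their sign. The 29 that turned belonged to 13 members with log2 fold changes of at most 0.082 in size. With 1 library left out, the values ran from −0.21 to 0.030 for Spast, −0.17 to 0.037 for Dpysl2, −0.041 to 0.098 for Tppp3, −0.019 to 0.12 for Tubg2, −0.0048 to 0.043 for Tubb5, −0.066 to 0.015 for Tppp and −0.0048 to 0.051 for Mapt. They ran from −0.0039 to 0.030 for Mapre2, −0.34 to 0.35 for Tuba8, −0.045 to 0.014 for Clasp2, −0.0068 to 0.031 for Tubb2b, −0.058 to 0.044 for Gap43 and −0.054 to 0.049 for Map2. Of members that kept their sign, further ones moved by over 1.5 times: Tubb6 (0.026 to 0.58), Stmn2 (0.048 to 0.18), Stmn4 (0.025 to 0.12), Dclk1 (0.015 to 0.14), Map6 (0.088 to 0.20), Tubb4b (0.045 to 0.13), Clasp1 (0.021 to 0.11), Dpysl3 (0.024 to 0.086), Dcx (0.061 to 0.13), Map4 (−0.069 to −0.031) and Tuba1c (−0.43 to −0.20). With the replicate number as a block the turned values were Tppp3 (−0.0067), Tppp (0.016), Mapt (−0.00036), Tuba8 (−0.046) and Map2 (−0.0089). Map2 also turned with DESeq2 size factors (−0.0024), with DESeq2 (−0.0024) and with no filter (−0.0057).

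Over all genes, the 3 calls became 6 with DESeq2 size factors, 96 with no filter, 40 with DESeq2, 1 with limma-voom, 12 with robust dispersion and 25 with the replicate block, and ran from 0 to 58 with 1 library left out. The labels do not say that libraries of the same number share anything. Deviations of same-numbered libraries from their group means correlated at 0.058 and 0.0020 across genes. Those of KO replicate 2 and WT replicate 3, of unlike number, correlated at 0.062. With 2 KO libraries their deviations mirror each other, so these values were not independent. Members at an unadjusted p under 0.05 numbered 3 with DESeq2 size factors, and 0 to 8 with 1 library left out. The other microtubule genes at that level numbered 5 under the block and 3 to 15 with 1 library left out. The number of members higher in KO stayed between 25 and 29. Medians of log2 fold changes ranged, with 1 library left out, from 0.045 to 0.13 for beta, 0.055 to 0.14 for alpha and 0.016 to 0.14 for gamma tubulins, 0.015 to 0.11 for lattice-binding MAPs, −0.0022 to 0.030 for plus-end proteins, 0.037 to 0.14 for stathmins, −0.31 to −0.049 for severing ATPases and −0.047 to 0.030 for Gap43 with the CRMPs. The difference of stabilisers and destabilising proteins between KO and WT was 0.012 in summed CPM and 0.0015 for MAPs against stathmins. The cause of these shifts was not tested. Tuba1c, at 1.36 CPM in KO and 1.69 CPM in WT, had few counts. Of its windows of 100 bases, 46.0% occurred in transcripts of another gene, and the part of depth in its level was not tested.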
